A study of Homo sapiens with 6 samples.

Results

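The RAS genes HRAS, NRAS, RRAS, RRAS2 and MRAS, the RAF kinase genes ARAF and BRAF and the RAS regulator NF1 were examined in EJ/T24 cells, an established human line of invasive bladder cancer that carries a mutant HRAS. Members were the probe sets of the HG-U133 Plus 2.0 array whose annotation gives a single symbol that is 1 of these 8 genes. This gave 10 of 54613 tested probe sets, for 6 of the 8 genes. HRAS, RRAS and NF1 had 1 probe set each, MRAS and ARAF had 2 each and RRAS2 had 3. NRAS and BRAF had no probe set named in the annotation used here and were not analysed here. A further 9 probe sets carry NF1 together with its pseudogene NF1P9, and no NF1 value was taken from them.

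Whole genome mRNA expression was measured on 6 arrays, 3 of EJ cells transfected with a FOXA1 construct (FOXA1 transfected) and 3 of EJ cells given the empty plasmid (control). The empty vector is pUC19 in the labels, whereas the methods put FOXA1 into pcDNA3 and name no other backbone for the empty vector. Whether the plasmids of the groups share a backbone could not be settled here. Both groups were transfected with the same amount of DNA by Lipofectamine and share the HRAS mutant background of the line. The methods name Lipofectamine LTX, and the labels name another Lipofectamine reagent. The share of cells that took up the construct and the time to harvest are unknown here. The methods describe transfection by the dish, in triplicate, without saying whether the dishes came from separately grown cultures. The p-values set the difference between the groups against the spread of arrays within a group, and that spread may be technical only. They then do not speak for separately grown cultures.

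RAS proteins are small GTPases that pass growth factor signals on when bound to GTP. Exchange factors such as SOS1 load them with GTP, and GTPase activating proteins such as NF1 (neurofibromin) switch them off. Active RAS recruits RAF kinases to the membrane, where they start the MEK and ERK cascade. HRAS mutations of the kind found in EJ/T24 cells keep the protein in its active form, and the mutant HRAS of this line was among the first human transforming genes to be isolated. R-RAS, encoded by RRAS, acts on integrin adhesion. RRAS2 (TC21) and MRAS are close relatives of the classical RAS proteins, and MRAS activates RAF through a complex with SHOC2. The array reads transcript levels and not the mutation itself, and no RAS activity was measured.

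The promoters of HRAS and ARAF are shown because these were the genes whose brightest probe sets separated the groups. They were taken from RefSeq (GRCh38.p14, 250 bases before to 50 bases after the start), which held 10 promoter entries for 5 of the 6 measured genes. Capitals mark the GC box GGGCGG, read on both strands, and the forkhead core TGTTTA, also read on both strands.
HRAS promoter, chr11:535527-535826, minus strand: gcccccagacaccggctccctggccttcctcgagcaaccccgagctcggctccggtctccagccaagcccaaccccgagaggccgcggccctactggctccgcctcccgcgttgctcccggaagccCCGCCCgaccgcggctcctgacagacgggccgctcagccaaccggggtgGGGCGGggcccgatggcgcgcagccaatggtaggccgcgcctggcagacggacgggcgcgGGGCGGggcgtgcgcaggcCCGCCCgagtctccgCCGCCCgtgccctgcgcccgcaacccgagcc
ARAF promoter, chrX:47560955-47561254, plus strand: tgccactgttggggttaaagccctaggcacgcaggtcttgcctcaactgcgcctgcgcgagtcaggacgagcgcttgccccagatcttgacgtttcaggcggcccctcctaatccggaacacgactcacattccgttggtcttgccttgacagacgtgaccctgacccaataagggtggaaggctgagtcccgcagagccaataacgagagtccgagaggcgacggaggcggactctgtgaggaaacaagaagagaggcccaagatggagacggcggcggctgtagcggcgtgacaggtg
The HRAS promoter held 5 GC boxes and had a GC content of 78.0%, and the ARAF promoter held 0 GC boxes at 60.3% GC. A GC box was present in 45.0% of 35116 promoters of the same length. FOXA1 belongs to the forkhead factors, whose binding motif contains TGTTTAC or TATTTAC. Neither form was found on either strand in the 10 entries of these genes, and they occurred in 3.42% and 2.67% of all promoters. The shorter TGTTTA, which TGTTTAC contains, occurred in 12.3% of all promoters and in 2 of the 10 entries, 1 of MRAS and 1 of RRAS2. These are printed as 30 bases around the match, since they hold the only matches to TGTTTA among the 10 entries. Other near forms of the motif were not searched.
MRAS window, chr3:138349209-138349238, plus strand: cagcctgcttcaTAAACAacccttcactgc
RRAS2 window, chr11:14364520-14364549, minus strand: caatgtgatcttTAAACAaggaatagattt
A match is a description of the letters in the window, and no binding was measured.

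The authors deposited Microarray Analysis Suite 5 (MAS5) signals on a linear scale. Median signals were 14.4 to 17.5 in FOXA1 transfected and 12.3 to 16.1 in control arrays. Array 2 had the lowest median in both groups. FOXA1 itself, at the brighter of its 2 probe sets, had signals of 38.9, 34.8 and 31.9 in FOXA1 transfected arrays and 21.8, 24.4 and 21.0 in control arrays, without overlap (log2 difference 0.65, SE 0.23, adjusted p = 0.307 from limma). At the dimmer one they were 2.5, 6.8 and 6.6 in FOXA1 transfected arrays and 8.0, 7.3 and 5.9 in control arrays, with overlap. Differences are FOXA1 transfected minus control as the labels name the arrays. This direction is opposite to that of the study's own table of changed genes. Signs here follow the labels, which the brighter FOXA1 probe set matches in direction though not past the threshold. The paper also checked FOXA1 protein by western blot in a portion of the transfected cells, which the array does not read. ACTB probe sets at the 3′ and 5′ ends, whose ratio reflects RNA quality, gave 2.37 ± 0.228 in FOXA1 transfected arrays against 1.73 ± 0.188 in control arrays (SD, n = 3 each). These ratios did not overlap, and the exact two-sided permutation test reached its lowest possible p of 0.1. The GAPDH ratio was 0.920 ± 0.0217 in FOXA1 transfected arrays against 0.899 ± 0.00926 in control arrays (SD, n = 3 each, exact permutation p = 0.3). The part of RNA quality in the results that follow was not tested. Of 9 epithelial markers 4 had mean signals under 3.5, the 20th percentile of all signals. This level was the floor in an alternative setting, while the reported fit kept such dim signals. CDH1 averaged 3.07 in FOXA1 transfected and 1.33 in control arrays, EPCAM 4.83 and 7.0, and KRT18 2478 and 2261. VIM, an intermediate filament of mesenchymal cells, averaged 4068 and 3836. Summed over 13 markers of leukocytes, endothelium, muscle and nerve, the signal was 148.4 to 159.0 in FOXA1 transfected and 115.3 to 149.7 in control arrays. Of the 13, 9 had a log2 difference above 0, beside 59.2% of all genes read at their brightest probe set. PECAM1, an endothelial and leukocyte adhesion molecule, did not overlap at 42.8, 54.9 and 52.0 in FOXA1 transfected arrays against 30.5, 35.8 and 42.2 in control arrays (adjusted p = 0.406 from limma). Nor did the epithelial keratin KRT7, at 33.8, 24.0 and 24.5 in FOXA1 transfected arrays against 20.9, 23.8 and 18.4 in control arrays (adjusted p = 0.650 from limma). The part of these markers in the results that follow was not tested.

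HRAS had a higher signal in FOXA1 transfected cells, by a small and even margin that did not pass correction over all probe sets. The arrays read 527.9, 540.1 and 526.7 in FOXA1 transfected cells and 405.3, 407.9 and 425.6 in control cells, at probe set 212983_at. The lowest FOXA1 transfected array exceeded the highest control array, and the gap between the groups was wider than the range within either. Means were 532 ± 7.41 and 413 ± 11.0 (SD, n = 3 each), a ratio of 1.29. The log2 difference was 0.36 (SE 0.08, 95% confidence interval 0.20 to 0.53), with an unadjusted p = 0.00052 and an adjusted p = 0.118 from limma. The exact two-sided permutation test gave p = 0.1. HRAS ranked 241 of 54613 probe sets by p. Over 13 other settings, among them the omission of each array in turn, its adjusted p from limma was 0.0594 to 0.743 and none passed. Centring each array on its median, which moved the median log2 difference of all probe sets to -0.10 where it was 0.08 without it, reduced the HRAS difference to 0.18. The groups then overlapped, at 454, 564 and 486 in FOXA1 transfected arrays against 429, 499 and 397 in control arrays.

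**Figure D1:**
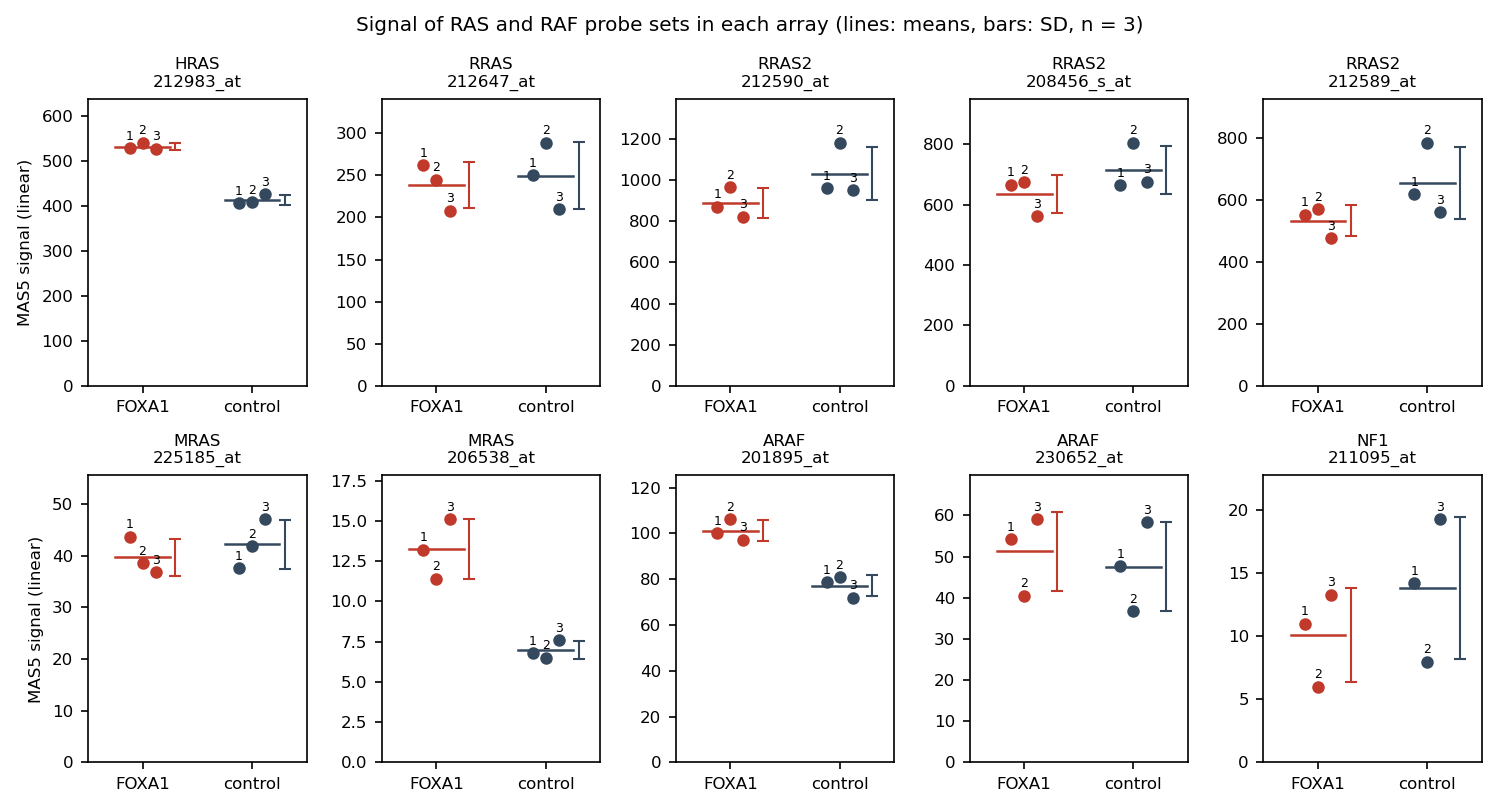
MAS5 signal on a linear axis at the 10 probe sets of 6 RAS and RAF genes, FOXA1 transfected arrays left and control arrays right, where each numbered point is an array, each line a mean and each bar an SD (n = 3). HRAS lies between 526.7 and 540.1 in FOXA1 transfected arrays and between 405.3 and 425.6 in control arrays, while RRAS, the 3 RRAS2 probe sets and NF1 overlap between the groups.

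RRAS, the integrin linked relative of HRAS, did not separate the groups. Its signals at 212647_at were 262.4, 244.7 and 208.1 in FOXA1 transfected arrays and 250.6, 288.8 and 209.9 in control arrays. Control array 2 was the highest and FOXA1 transfected array 3 the lowest, with the others interleaved. The log2 difference was -0.06 (SE 0.13, 95% confidence interval -0.35 to 0.23, adjusted p = 0.902 from limma). Its sign turned when either of those arrays was left out, to 0.03 without FOXA1 transfected array 3 and 0.05 without control array 2.

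RRAS2 (TC21) had lower mean signals in FOXA1 transfected cells at all 3 of its probe sets, which read the same gene and are not independent. None passed the threshold, and the groups overlapped at each. At the brightest, 212590_at, signals were 871.5, 966.2 and 822.9 in FOXA1 transfected arrays and 962.4, 1181.8 and 950.4 in control arrays. FOXA1 transfected array 2 was the only one that reached into the control range. The log2 difference was -0.21 (SE 0.10, 95% confidence interval -0.44 to 0.01, adjusted p = 0.460 from limma). At 212589_at signals were 552.2, 569.9 and 475.9 in FOXA1 transfected arrays and 618.0, 783.7 and 560.5 in control arrays. This was the probe set with the lowest RRAS2 ratio, 0.820 (log2 difference -0.29, SE 0.12, unadjusted p = 0.0391, adjusted p = 0.410 from limma). At 208456_s_at they were 666.5, 673.4 and 561.3 in FOXA1 transfected arrays and 664.1, 805.0 and 675.7 in control arrays, a log2 difference of -0.17 (SE 0.10). As for RRAS, control array 2 was the highest and FOXA1 transfected array 3 the lowest at each of the 3 probe sets. Without control array 2 the differences were -0.11, -0.15 and -0.08 in the same order.

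MRAS, the partner of SHOC2, gave different readings at its 2 probe sets. At the brighter, 225185_at, signals were 43.7, 38.6 and 36.8 in FOXA1 transfected arrays and 37.6, 41.9 and 47.1 in control arrays, with overlap. The log2 difference was -0.09 (SE 0.19, 95% confidence interval -0.50 to 0.33, adjusted p = 0.904 from limma). At 206538_at they were 13.2, 11.4 and 15.1 in FOXA1 transfected arrays and 6.8, 6.5 and 7.6 in control arrays, without overlap. That is a log2 difference of 0.92 (SE 0.45, 95% confidence interval -0.07 to 1.91, adjusted p = 0.476 from limma). The mean signal there was 10.1, under 14.5, the median over all probe sets, and the SE of this dim probe set was more than that of the brighter one. That SE depends on the fit, which lets the spread follow intensity. The unadjusted p from limma was 0.0656 in this fit and 0.0022 without that trend (adjusted p = 0.406). With signals floored at the 20th percentile it was 0.00576 (adjusted p = 0.240). The groups at 206538_at also did not overlap after quantile normalization or after median centring. With any 1 array left out they stayed apart as well, which the omission of an array cannot change. The sources used here do not say which MRAS transcripts each probe set reads.

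ARAF, 1 of the RAF kinases that RAS activates, also differed between its 2 probe sets. At the brighter, 201895_at, signals were 100.2, 106.2 and 97.3 in FOXA1 transfected arrays and 78.7, 80.8 and 71.9 in control arrays. The groups did not overlap, and means were 101 ± 4.54 and 77.1 ± 4.65 (SD, n = 3 each), a ratio of 1.31. The log2 difference was 0.39 (SE 0.12, 95% confidence interval 0.12 to 0.66), with an unadjusted p = 0.00846 and an adjusted p = 0.263 from limma (0.156 to 0.757 over 13 other settings). The exact two-sided permutation test gave p = 0.1. After median centring the difference was 0.21 and the groups overlapped. At 230652_at signals were 54.3, 40.5 and 59.1 in FOXA1 transfected arrays and 47.7, 36.7 and 58.4 in control arrays. Here array 2 was the lowest and array 3 the highest in both groups, and the log2 difference was 0.12 (SE 0.22, 95% confidence interval -0.37 to 0.60). It was 0.28 without FOXA1 transfected array 2 or control array 3, and -0.06 without control array 2.

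NF1, the GTPase activating protein of the group, was read by 211095_at alone, at 11.0, 6.0 and 13.3 in FOXA1 transfected arrays and 14.2, 8.0 and 19.3 in control arrays. The groups overlapped, array 2 was again the lowest in both, and the mean signal of 11.97 lay under the median of all probe sets. The log2 difference was -0.44 (SE 0.51, 95% confidence interval -1.55 to 0.67, adjusted p = 0.794 from limma), and -0.79 to -0.10 with 1 array left out. That interval covers large differences in either direction, and no change in NF1 was detectable at this signal.

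**Figure D2:**
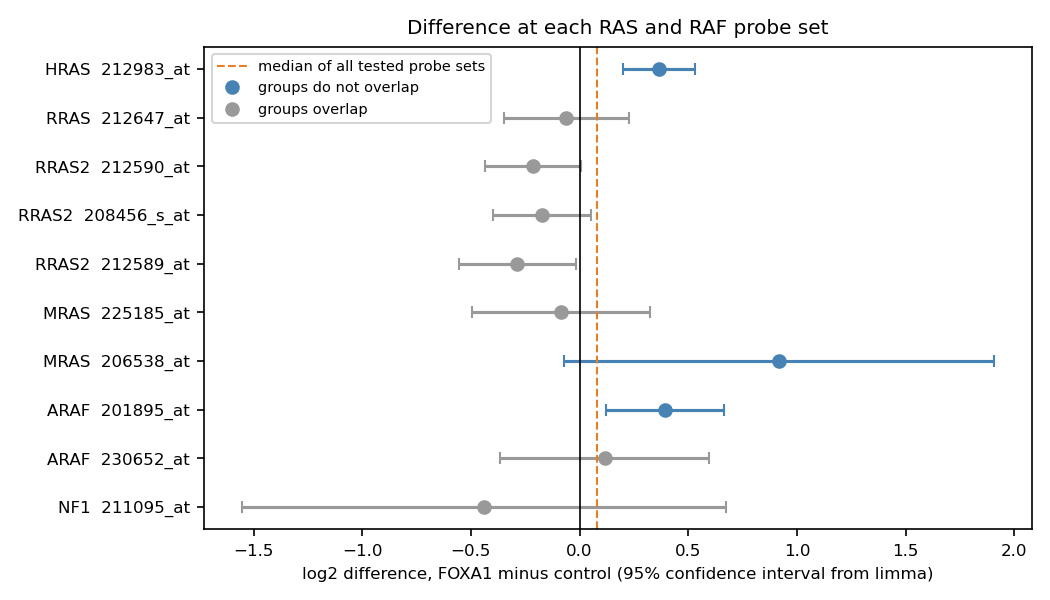
Log2 difference (FOXA1 transfected minus control) with the 95% confidence interval from limma for each of the 10 probe sets, blue where the groups do not overlap and grey where they do. The dashed line is the median of all tested probe sets, 0.08, and the intervals of HRAS and of the brighter ARAF probe set lie above it.

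By brightest probe set, 2 of the 6 genes (HRAS and ARAF) lay above 0 and 4 (RRAS, RRAS2, MRAS and NF1) below, where 59.2% of all genes lay above. Of the 10 probe sets 4 lay above 0 and 6 below, with a median log2 difference of -0.07. Over all 54613 tested probe sets the median was 0.08 and 58.2% lay above 0. Among probe sets above the median signal, to which 8 of the 10 belong, the median was 0.03 and 55.3% lay above 0. None of the 10 passed an adjusted p of 0.05 from limma, and 0.0586% of all probe sets did. At an unadjusted p under 0.05 there were 3 of the 10 (HRAS, the brighter ARAF and 1 RRAS2 probe set), where 11.3% of all probe sets reached it. Every FOXA1 transfected array lay above every control array at 3 of the 10 (HRAS, the brighter ARAF and the dimmer MRAS probe set), against 10.5% of all probe sets. Every one lay below at 0 of the 10, against 5.86%. With so few probe sets, 3 of which read RRAS2, these shares are given as counts only.

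**Figure D3:**
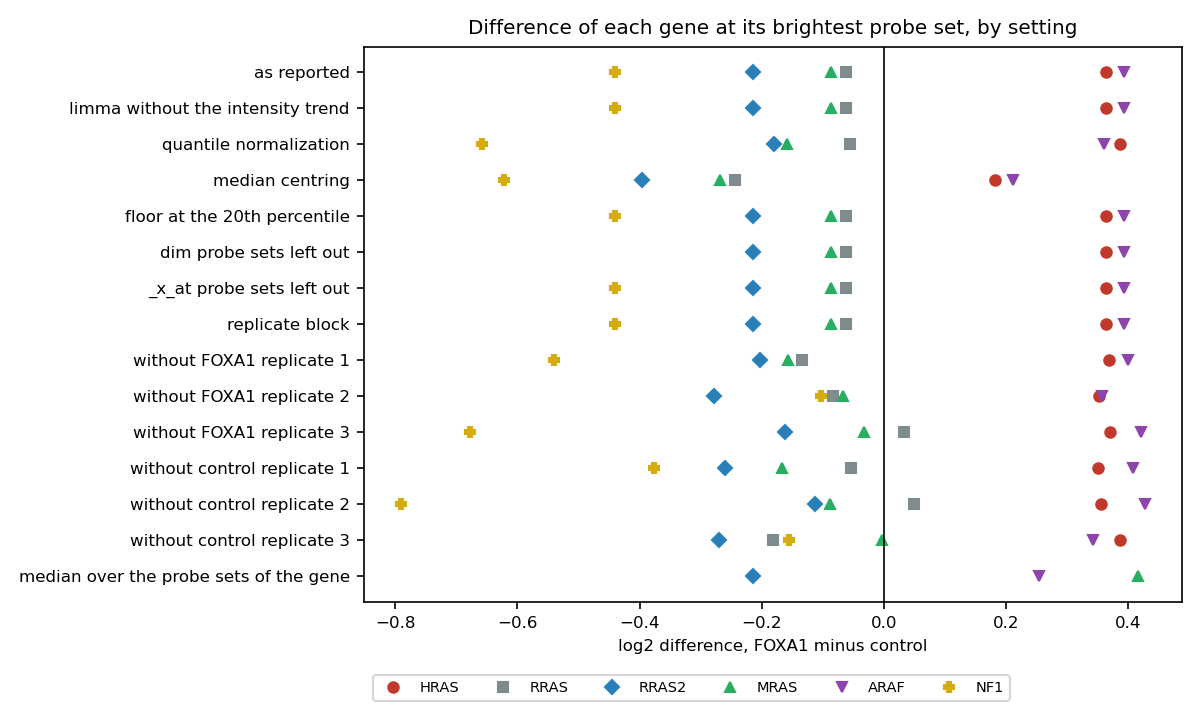
Log2 difference (FOXA1 transfected minus control) of each of the 6 genes at its brightest probe set, in the reported setting (top) and under each alternative, with 1 symbol per gene. HRAS and ARAF stay to the right of 0 in all settings shown and RRAS2 to the left, while RRAS crosses 0 without FOXA1 transfected array 3 or control array 2 and MRAS crosses it when the median over its probe sets is taken.

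The 5 probe sets of other genes most like HRAS over the 6 arrays, by Pearson's r of log2 signals among 22629 with 1 symbol and a signal above the median, belong to MFAP3 (r = 0.998), RBM38 (0.997), SRPRA (0.997), ASMTL-AS1 (0.995) and PRRT3-AS1 (0.994). The 6 points are 2 groups of 3, so any probe set that separates the groups evenly scores high, and 250 had an r above 0.95. SRPRA, a subunit of the receptor for the signal recognition particle, was the only 1 of the 5 to pass the threshold. Its signals were 285.2, 281.6 and 276.5 in FOXA1 transfected arrays and 174.6, 178.3 and 185.9 in control arrays (log2 difference 0.65, SE 0.09, adjusted p = 0.0346 from limma). MFAP3, a microfibril associated protein, averaged 286 in FOXA1 transfected and 226 in control arrays, and RBM38, an RNA binding protein, 71.6 and 60.2. The antisense transcripts ASMTL-AS1 and PRRT3-AS1 averaged 56.9 and 29.9 in FOXA1 transfected arrays, against 30.6 and 17.9 in control arrays.

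Around these genes, 87 of 94 listed genes of the RAS pathway were measured, each read at its brightest probe set. None passed an adjusted p of 0.05 from limma, and 10 of 87 (11.5%) had an unadjusted p under 0.05, beside the 11.3% of all probe sets. Of the 87, 46 lay above 0 and 41 below, where 59.2% of all genes read this way lay above 0 (median 0.07). The counts of each list below stand beside that same share. Groups did not overlap at 9 of the 87 with the FOXA1 transfected arrays above and at 9 with them below, beside 10.5% and 5.86% of all probe sets. The shares of 11.3%, 10.5% and 5.86% include dim probe sets and are not restricted to the brightest probe set of each gene, so they are not a matched background.

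Of 8 exchange factors, which load proteins of the RAS family with GTP, 3 lay above 0 and 5 below (median -0.14). SOS1, the exchange factor recruited by GRB2, averaged 145 in FOXA1 transfected and 166 in control arrays (log2 difference -0.19, SE 0.11). RASGRP2, which responds to calcium, averaged 14.8 and 8.30 without overlap (log2 difference 0.92, SE 0.47). RASGRP4 averaged 10.4 and 3.70, with 22.3 in FOXA1 transfected array 1 and 4.1 to 4.9 in the others of that group. Of the 5 measured GTPase activating proteins other than NF1, 2 lay above 0 and 3 below (median -0.13). RASA3 averaged 114 in FOXA1 transfected and 147 in control arrays (log2 difference -0.40, SE 0.17, adjusted p = 0.412 from limma), with 150.6 in FOXA1 transfected array 3 inside the control range. RASAL1 averaged 22.8 and 14.1, and RASAL3 7.70 and 2.37, of which the control mean is under 3.5.

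Of 12 adaptors, scaffolds and brakes, 7 lay above 0 and 5 below (median 0.03), and 5 separated the groups, 1 above and 4 below, where 10.5% of all probe sets did so above and 5.86% below. PEBP1, the RAF kinase inhibitor protein, averaged 2365 in FOXA1 transfected and 2810 in control arrays (log2 difference -0.25, SE 0.07, unadjusted p = 0.00539, adjusted p = 0.235 from limma). GRB2, the adaptor that brings SOS1 to receptors, averaged 624 and 528 (log2 difference 0.24, SE 0.08, adjusted p = 0.269 from limma). LZTR1, which directs RAS proteins to degradation, averaged 51.2 and 65.2 (log2 difference -0.34, SE 0.16). SHOC2, the scaffold that MRAS binds, averaged 577 in FOXA1 transfected and 599 in control arrays (log2 difference -0.06, SE 0.09, adjusted p = 0.851 from limma). SHOC2 was named after its values were seen.

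Of 8 genes that process the lipid tail of RAS, 5 lay above 0 and 3 below (median 0.03). PDE6D, which carries prenylated RAS through the cytosol, averaged 418 in FOXA1 transfected and 501 in control arrays (log2 difference -0.26, SE 0.08, adjusted p = 0.263 from limma). LYPLA1, a thioesterase that removes palmitate, averaged 5101 and 4407 (log2 difference 0.22, SE 0.08), and ICMT, which methylates the prenylated end, 519 and 464 at a probe set of the _x_at kind, which can bind related transcripts. Of 16 measured effectors and MEK and ERK genes, 7 lay above 0 and 9 below (median -0.04). AFDN (afadin), a RAS binding junction protein, averaged 303 in FOXA1 transfected and 354 in control arrays (log2 difference -0.23, SE 0.09), and PIK3CD, a catalytic subunit of PI3 kinase, 417 and 485 (log2 difference -0.22, SE 0.09), both without overlap. MAP2K2 (MEK2), which RAF kinases phosphorylate, averaged 246 and 218 with overlap (log2 difference 0.17, SE 0.11).

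Of 28 measured other RAS subfamily GTPases, 18 lay above 0 and 10 below (median 0.05). NKIRAS2, a regulator of NF-kappaB, averaged 113 in FOXA1 transfected and 86.8 in control arrays without overlap (log2 difference 0.39, SE 0.13, adjusted p = 0.304 from limma). RIT2 averaged 5.90 and 0.967, the second under 3.5, and REM1 13.3 and 4.37. Of 10 genes used as a readout of ERK activity, 4 lay above 0 and 6 below (median -0.13). None separated the groups, where 10.5% of all probe sets did so above and 5.86% below. With so few genes this is a count only. CCND1 (cyclin D1) averaged 708 in FOXA1 transfected and 573 in control arrays (log2 difference 0.28, SE 0.15, adjusted p = 0.525 from limma). SPRY2, a feedback inhibitor of RAS signaling, averaged 998 and 1140 (log2 difference -0.18, SE 0.11), and the receptor EPHA2 696 and 766 (log2 difference -0.14, SE 0.09).

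**Figure D4:**
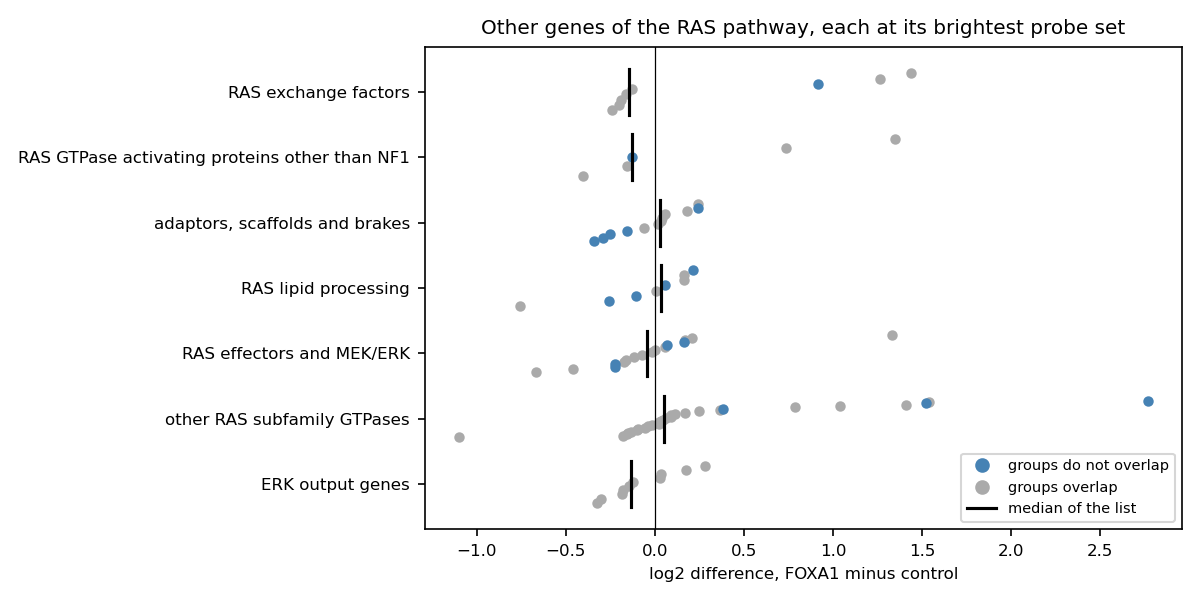
Log2 difference (FOXA1 transfected minus control) of 87 other RAS pathway genes in 7 lists, each at its brightest probe set, blue where the groups do not overlap and grey where they do, with a black bar for the median of each list. The list medians lie between -0.14 and 0.05, and the point farthest to the right is RIT2 (2.77), whose control mean of 0.967 is under 3.5.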

How the data were processed

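The table deposited by the authors holds 1 MAS5 intensity for each probe set and array, on a linear scale. The methods name a GC3000 scanner and Gene Chip Operating System software, and then RMA log2 values and SAM, which these values do not include. SAM was not run here, since it regroups the arrays. All sample columns were mapped to a sample. Here 62 array controls were left out, 25 values at 0 were set to 0.1 and signals were converted to log2. Groups came from the sample titles. For the 54613 remaining probe sets a two-sided limma fit (version 3.58.1, R 4.3.3, lmFit, then eBayes with its trend on intensity) was made, p-values were adjusted by Benjamini-Hochberg across every one of them, and 0.05 was the threshold. Exact two-sided permutation tests were added for single values.

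Symbols came from the platform annotation, in which 41091 tested probe sets have 1 symbol, 1801 several and 11721 none. The Entrez number gave the same symbol in RefSeq for all 10 member probe sets. A gene with several probe sets was read by that of highest mean log2 signal, and the other probe sets are given too. Signals of different probe sets were not set against each other, since probes differ in brightness.

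The members and lists were chosen with earlier results of these data known. The genes named were all members, up to 3 genes of each pathway list with the smallest p, the 5 probe sets most like HRAS, and FOXA1, while SHOC2 and some marker genes were added after their values were seen. Tested on data simulated from these arrays with 200 probe sets changed, 100 by 1 and 100 by 2 log2 units, limma recovered 30% and 70% with 6 false calls among 54613. The changed probe sets were drawn at random over all signals, and smaller differences such as that of HRAS were not simulated. These rates therefore do not give the recovery for the members. The number of arrays limits the precision.

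Alternatives were a fit without the trend, quantile normalization, arrays centred on their medians, signals floored at the 20th percentile, omission of dim or of _x_at probe sets, the replicate number as a block, each array left out in turn, and the median over the probe sets of a gene.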

Additional observations from a re-analysis of the deposited data

How the results depend on the processing

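None of the 10 member probe sets and none of the 87 pathway genes passed limma in any of 13 alternatives, at 3 and 10 unadjusted p under 0.05 in the reported setting. The number of all probe sets past the threshold was 32, and changed to 1 without the intensity trend, 7 after median centring, 174 with dim probe sets left out and 85 with the replicate number as a block. It ranged from 4 to 76 with 1 array left out (10, 6 and 76 without FOXA1 transfected array 1, 2 or 3, and 10, 5 and 4 without control array 1, 2 or 3). Same-numbered arrays had correlations of 0.00218 to 0.0381 between their deviations from the group means over all probe sets, and of 0.0439, 0.164 and 0.107 over those above the median signal. Not every pair exceeded 0.1 on either set, so the numbers were not taken to pair them. The replicate block changed no call of a member, since none passed with or without it. With the block the unadjusted p from limma was 0.00721 at 212589_at and 0.0166 at 212590_at of RRAS2, and 0.0391 and 0.0569 without it. It rose at HRAS, the brighter ARAF and the MRAS probe sets. Not every array correlated best with its own number. Probe sets without overlap of the groups numbered 3 of 10, with 1 after median centring (the dimmer MRAS probe set), and 3 to 5 with 1 array left out. The 5 came without FOXA1 transfected array 2, with RRAS2 at 212590_at and 212589_at below control in addition. Groups separate more easily when an array is left out. The share of all probe sets was not counted in these settings, so these counts are not read as a result about the members. The median log2 difference of the members was -0.07, and -0.26 after median centring. The direction reversed for RRAS without FOXA1 transfected array 3 (0.033) and without control array 2 (0.0491), within a range of -0.181 to 0.0491 over the 6 omissions, and for MRAS with the median over its 2 probe sets (0.42). The causes of these changes were not tested. The direction of HRAS, ARAF, RRAS2 and NF1 at the brightest probe set was kept in each alternative that tests it. Dim probe sets (211095_at of NF1 and 206538_at of MRAS) had SEs of 0.51 and 0.45 in the reported fit, which limits what it can detect there. Without the intensity trend the unadjusted p from limma was 0.376 for 211095_at and 0.0022 for 206538_at, and neither passed correction.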
